A study of Homo sapiens with 6 samples.

Results

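The 8 mucin genes MUC1, MUC2, MUC4, MUC5AC, MUC5B, MUC12, MUC13 and MUC20 were followed in DLD1 cells, an established human colorectal adenocarcinoma line, through every probe set whose annotation named 1 of them and no other gene. This gave 24 of the 54613 probe sets and 8 of the 19775 named genes on the array. A probe set is a group of short probes that together report 1 transcript or part of it, so a gene can have several. The genes were chosen as members of the mucin family, with earlier results of these data known. Further mucins on the array are given below as a separate list.

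The study exposed cultures of DLD1 for 12 h to 10 µM SAH-BCL9B or to vehicle, labelled as DMSO, and hybridised 3 arrays per group, from what the labels call triplicates. SAH-BCL9B is a hydrocarbon-stapled helical peptide modelled on the part of BCL9 that binds beta-catenin, and the study's title names disruption of that complex as its aim. All 6 arrays came from this 1 cell line, and no control peptide was part of the design. The values are log2 expression levels from Affymetrix U133 Plus 2.0 arrays, every n below is 3 per group, and the number of arrays limits the precision. Because the labels do not say how far apart the cultures were handled, p-values measure only the spread between these arrays.

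Mucins are long proteins densely coated with sugar chains attached to serine and threonine. The secreted, gel-forming kind builds the mucus layer over the epithelium, and the membrane-bound kind covers the cell surface and can signal through a short tail inside the cell. In the colon, MUC2 from goblet cells is the main gel former, while MUC1, MUC4, MUC12, MUC13 and MUC20 are membrane-bound.

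The line was set against markers of its labelled tissue and of other cell types. The 11 epithelial and colon epithelial markers had vehicle log2 levels from 6.61 for GPA33, near the array medians, to 14.9 for KRT18, with a median of 12.2. The adhesion genes EPCAM and CDH1 were at 14.4 and 13.9. Over the list the arrays averaged 11.45 to 11.51 in vehicle and 11.40 to 11.43 in SAH-BCL9B. The markers of fibroblasts (8 measured genes), leukocytes (6) and endothelium (5) had medians of 6.04, 5.96 and 6.01 and averaged 6.06 to 6.31, 5.75 to 5.87 and 5.53 to 5.74 over the vehicle arrays. In the SAH-BCL9B arrays these averages were 6.08 to 6.34, 5.77 to 6.15 and 5.60 to 5.72. Their highest members were COL1A1 (8.55), CD3D (6.77) and PECAM1 (7.25), and signals of different probes do not rank transcripts. Of these 19 markers none passed the test described below (all genes: 1.92% fell and 1.61% rose). In limma, none had an unadjusted p under 0.05 (all genes: 19.0%). In vehicle, 5 of the fibroblast, 5 of the leukocyte and 4 of the endothelial markers lay below the array medians. Array medians lay between 6.58 and 6.62. Vehicle 3 and SAH-BCL9B 2 stood apart by a narrower spread of values (SD 2.43 and 2.42, against 2.47 to 2.49 on the other arrays), and SAH-BCL9B 2 also had the lowest 3' minus 5' difference of ACTB, a measure of RNA quality (0.74, against 1.20 to 1.38). In the same measure of GAPDH, SAH-BCL9B 2 lay among the other arrays (0.14, against 0.085 to 0.17). Among the 12 mucin probe sets below the array medians, SAH-BCL9B 2 was the highest array of its group in 8 and vehicle 3 in 6. Over all such dim probe sets this was so in 54.5% and 46.7%.

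Of the mucins, only MUC13 had a probe set past the test, and it fell. The threshold was an adjusted p of 0.05 in limma, adjusted over all 54613 probe sets. Over all of them 2.50% passed, 1.37% downward and 1.12% upward. Of the 24 mucin probe sets 1 fell, none rose and 23 did not pass, and 4 had an unadjusted p under 0.05 (all probe sets: 15.4%). The groups did not overlap in 6 of the 24, 4 lower and 2 higher, against 22.0% of all probe sets (9.73% lower and 12.3% higher). The median log2 change of the 24 was 0.01, and that of all probe sets was 0.01. With 1 of 24 called, the family as a whole lay near the background.

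**Figure D1:**
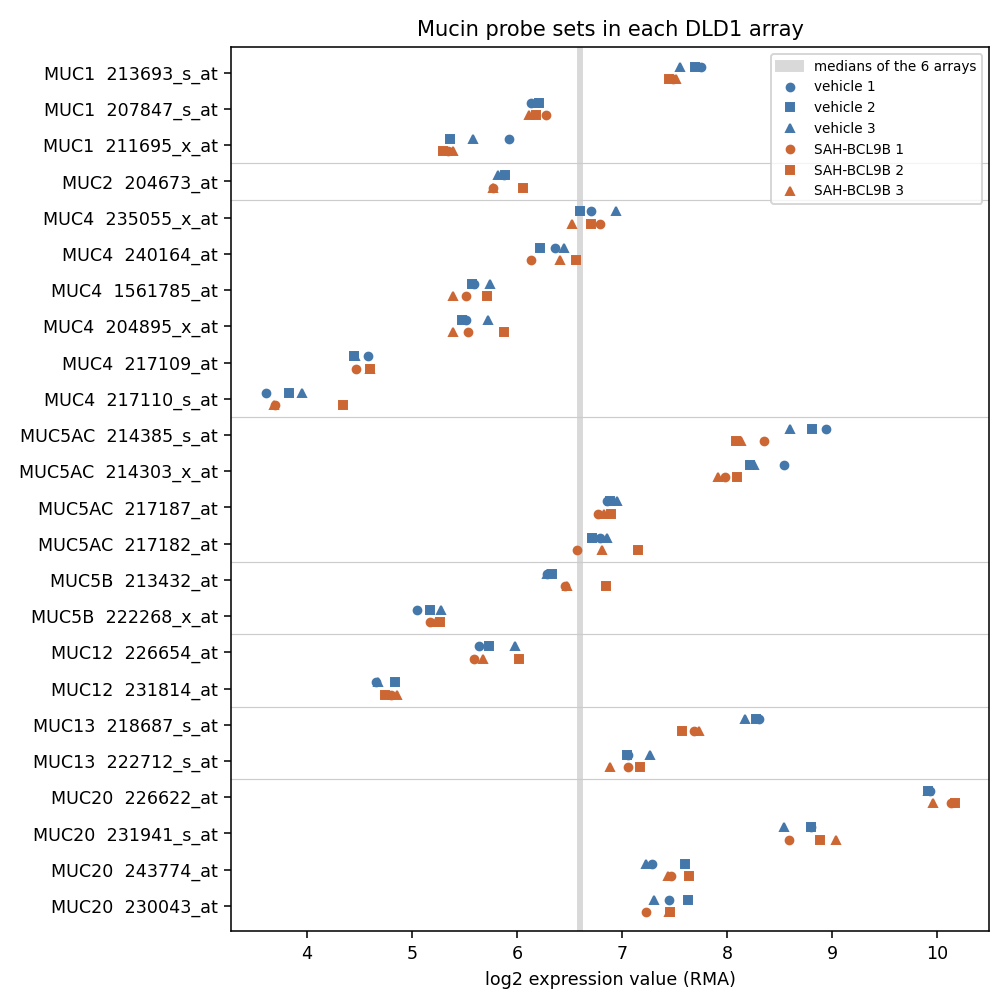
Log2 expression value (x axis) of each of the 24 mucin probe sets (y axis) in the 3 vehicle arrays (blue) and the 3 SAH-BCL9B arrays (orange), with the band of the 6 array medians in grey. The SAH-BCL9B arrays lie to the left of the vehicle arrays in 4 probe sets: the brighter one of MUC13, the 2 brighter ones of MUC5AC and 213693_s_at of MUC1. The 12 whose vehicle mean lies left of the band belong to MUC1, MUC2, MUC4, MUC5B and MUC12.

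As a yardstick for dim signals, 17 genes were taken as typical of other organs, such as INS and ALB. Their vehicle levels ran from 4.17 to 8.04, with a median of 5.34. The list includes GCG (4.37), a gene not confined to other organs. The highest was SFTPC, a lung surfactant gene. Only 5 mucin probe sets were brighter than that in vehicle: 2 of MUC5AC, 2 of MUC20 and 1 of MUC13. Probe sets differ in how well they bind, so this places their signals and does not rank the transcripts. Detection calls were not used here.

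MUC13, a membrane mucin of the intestinal epithelium with EGF-like domains outside the cell, gave the clearest difference. Its brighter probe set, 218687_s_at, had log2 levels of 8.30, 8.28 and 8.17 in the vehicle arrays and 7.69, 7.57 and 7.74 in the SAH-BCL9B arrays. Every SAH-BCL9B array was lower than every vehicle array, and the gap between the groups was wider than the range within either. The mean level fell from 8.25 ± 0.07 to 7.66 ± 0.08 (SD, n = 3), a log2 change of -0.58 ± 0.09 (SE), or 1.50-fold lower (limma adjusted p = 0.0232). The 95% interval of the log2 change ran from -0.79 to -0.38. In bulk samples such as these, fewer cells that make a transcript and less of it per cell cannot be told apart.

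The other probe set of MUC13, 222712_s_at, did not pass. Its levels were 7.06, 7.05 and 7.27 in vehicle and 7.06, 7.17 and 6.89 in SAH-BCL9B. The groups overlapped, and the log2 change was -0.09 ± 0.11 (SE, limma adjusted p = 0.813, 95% interval -0.34 to 0.17). Within each array, the brighter probe set exceeded the dimmer one by 0.90 to 1.24 in vehicle and by 0.40 to 0.85 in SAH-BCL9B. The difference between the 2 changes was -0.50, a description, since the brighter probe set was singled out for its change. Averaged over both probe sets, the gene changed by -0.33 (limma adjusted p = 0.031 over genes, of which 4.94% passed). This average was 1 of 17 alternatives, and the others used the brighter probe set. Over all of them the limma adjusted p ran from 0.008 to 0.13. The ending _s_at marks probes that fit more than 1 transcript, and which forms of the gene each probe set reports was not tested.

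The call for MUC13 was lost in 5 of the 6 fits that left out 1 array. Leaving out vehicle 1, 2 or 3 raised its value to above 0.05 for the brighter probe set (limma adjusted p = 0.13, 0.10 and 0.062). So did leaving out SAH-BCL9B 1 (0.088) or SAH-BCL9B 3 (0.091). Of these fits, the one that dropped SAH-BCL9B 2 kept the call (0.034). Its log2 change stayed between -0.62 and -0.54 in these 6 fits, and it was -0.58 with vehicle 3 and SAH-BCL9B 2 both left out (0.045). Calls over all probe sets numbered 1363 with every array and 97 to 1478 in the same 6 fits, the highest of them without SAH-BCL9B 2.

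The start of MUC13 is shown because the peptide was designed against a coactivator of beta-catenin, which reaches DNA through TCF/LEF factors, and MUC13 was the member that passed. The window holds 250 bases before and 50 after the annotated start (RefSeq, GRCh38.p14, chr3:124934702-124935001, minus strand), with capitals for a TCF/LEF-type word and for a cyclic AMP response element.

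MUC13: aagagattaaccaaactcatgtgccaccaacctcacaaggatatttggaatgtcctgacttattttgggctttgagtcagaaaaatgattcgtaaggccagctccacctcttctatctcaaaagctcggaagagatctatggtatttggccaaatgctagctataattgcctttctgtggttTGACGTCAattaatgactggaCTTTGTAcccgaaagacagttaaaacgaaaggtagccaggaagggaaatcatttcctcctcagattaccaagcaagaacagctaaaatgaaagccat

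The TCF/LEF search used CTTTGNN with each N an A or a T, on both strands. MUC13 matched once, with CTTTGTA from 47 to 41 bases before the start, and 13.8% of the 35116 windows of this length in the table held a match. The response element TGACGTCA lay 68 to 61 bases before the start, and 1.85% of all windows held it. The 2 matches did not overlap. Windows were at hand for 5 of the 8 mucins, in 6 entries, and not for MUC5AC, MUC5B and MUC20, which could not be searched. Those of MUC1, MUC2, MUC4 and MUC12 held neither word. The core promoter word TATAAA was found in MUC1 and MUC12 (11.5% of all windows) and GGGCGG, bound by SP1, in MUC1, MUC2 and MUC4 (45.0%), each searched on both strands, and the MUC13 window held neither. A match is a description of letters in this window and shows no binding.

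MUC5AC, a secreted gel former of the stomach surface and the airways that also appears in colorectal tumours, had a change as large as that of MUC13 and narrowly missed the threshold. Its brightest probe set, 214385_s_at, had log2 levels of 8.94, 8.81 and 8.59 in vehicle and 8.35, 8.08 and 8.13 in SAH-BCL9B. The groups did not overlap, and both varied more than in MUC13. The means were 8.78 ± 0.18 and 8.19 ± 0.14 (SD, n = 3), and the log2 change was -0.59 ± 0.12 (SE; limma adjusted p = 0.0517, 95% interval -0.87 to -0.31).

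A further probe set of MUC5AC pointed the same way. In 214303_x_at the levels were 8.54, 8.22 and 8.26 in vehicle and 7.98, 8.09 and 7.91 in SAH-BCL9B, again with no overlap. Its log2 change was -0.35 ± 0.11 (SE, limma adjusted p = 0.186). The ending _x_at marks probes that can also bind similar sequences of other genes.

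The 2 dimmer probe sets of MUC5AC, which the annotation gives the same source sequence, had overlapping groups. The levels of 217187_at ran from 6.86 to 6.96 in vehicle and from 6.77 to 6.89 in SAH-BCL9B (log2 change -0.07 ± 0.08, SE). Those of 217182_at ran from 6.72 to 6.86 in vehicle and from 6.58 to 7.15 in SAH-BCL9B, where SAH-BCL9B 2 was the highest (0.06 ± 0.15). The change of the brightest probe set differed from that of 217187_at by -0.52, given as a description because the pair was chosen after the values were seen. The average of its 4 probe sets changed by -0.24 (limma adjusted p = 0.14 over genes).

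Whether MUC5AC counted as lowered turned on the setting. Of 17 alternatives, 1 of which averages all its probe sets, it passed in 6, among them the fit with 1 probe set per gene (adjusted p = 0.022, 19775 genes, of which 6.93% passed and 3.43% fell). Over the 17 the adjusted p ran from 0.015 to 0.21, and it missed the threshold with each array left out in turn. Leaving out both vehicle 3 and SAH-BCL9B 2 gave a log2 change of -0.63 (0.059). In the fit with 1 probe set per gene, MUC13 and MUC5AC were the 2 of 8 mucins that fell.

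**Figure D2:**
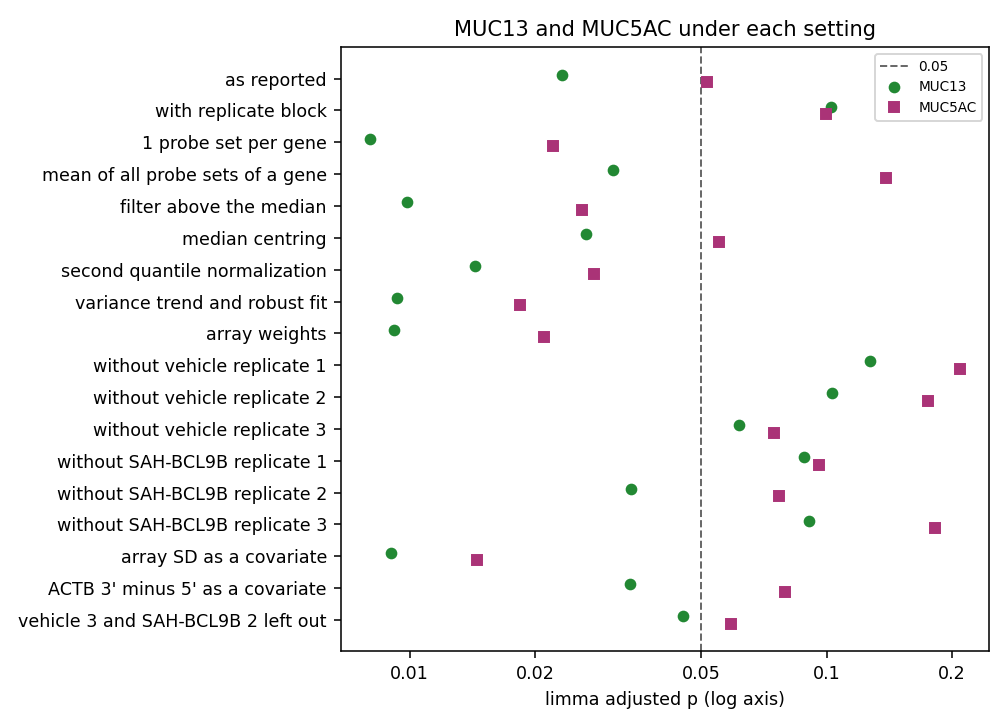
Limma adjusted p (x axis, log scale) of MUC13 (circles) and MUC5AC (squares) as reported and under each of 17 alternatives (y axis), by the brightest probe set except in the alternative that averages all probe sets of a gene, with the threshold of 0.05 dashed. The value of MUC13 ran from 0.008 to 0.13 and passed in 11 alternatives, and that of MUC5AC ran from 0.015 to 0.21 and passed in 6.

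MUC2 and MUC5B lie on either side of MUC5AC in the gene order of RefSeq, and neither changed past the threshold. MUC2, the goblet cell gel former, had levels in 204673_at of 5.88, 5.89 and 5.82 in vehicle and 5.77, 6.06 and 5.77 in SAH-BCL9B. SAH-BCL9B 2 was the highest array and the other two SAH-BCL9B arrays were the lowest. The log2 change was 0.01 ± 0.10 (SE, limma adjusted p = 0.99, 95% interval -0.23 to 0.25), at a level below the array medians. It was -0.11 without vehicle 3 and SAH-BCL9B 2.

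MUC5B, a gel former of the airways and salivary glands, had the largest positive value of the family. In 213432_at the levels were 6.28, 6.33 and 6.28 in vehicle and 6.46, 6.85 and 6.48 in SAH-BCL9B. The groups did not overlap, and SAH-BCL9B 2 lay well above the rest. The log2 change was 0.30 ± 0.12 (SE, limma adjusted p = 0.287), and it was 0.17 without SAH-BCL9B 2. Both groups lay below the array medians except for that array. The other probe set of MUC5B, 222268_x_at, had a log2 change of 0.06 ± 0.09.

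Among the membrane mucins, MUC20, a small mucin that binds the receptor MET, had positive changes in 3 of its 4 probe sets and passed in none. In 226622_at the levels were 9.94, 9.92 and 9.91 in vehicle and 10.13, 10.17 and 9.96 in SAH-BCL9B. The groups did not overlap, although the lowest SAH-BCL9B array came close to the vehicle arrays. The log2 change was 0.16 ± 0.09 (SE, limma adjusted p = 0.454, 95% interval -0.04 to 0.37). The other 3 probe sets of MUC20 had overlapping groups and log2 changes of 0.13 (231941_s_at), 0.15 (243774_at) and -0.08 (230043_at). RefSeq lists a pseudogene, MUC20P1, on the same chromosome, so these signals may mix both.

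MUC1, whose tail inside the cell is known to bind beta-catenin, had 1 probe set with separate groups. The levels of 213693_s_at were 7.75, 7.69 and 7.55 in vehicle and 7.49, 7.45 and 7.51 in SAH-BCL9B. The lowest vehicle array, vehicle 3, lay just above the highest SAH-BCL9B array. The log2 change was -0.18 ± 0.09 (SE, limma adjusted p = 0.39, 95% interval -0.39 to 0.02). The other two, both below the array medians, had overlapping groups, with 0.01 ± 0.08 for 207847_s_at and -0.28 ± 0.14 for 211695_x_at. In the latter, vehicle 1 (5.93) stood above the other vehicle arrays (5.37 and 5.59).

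MUC4, a partner of the receptor ERBB2 and the neighbour of MUC20 in the gene order, gave dim signals. Of its 6 probe sets 5 lay below the array medians, with vehicle means from 3.80 to 6.34, and the brightest, 235055_x_at, had vehicle and SAH-BCL9B means of 6.75 ± 0.17 and 6.67 ± 0.14 (SD, n = 3). All 6 had overlapping groups, with log2 changes from -0.09 for 1561785_at to 0.11 for 217110_s_at (0.06 for 217109_at, 0.02 for 240164_at and 0.03 for 204895_x_at) and adjusted p of 0.792 and above. MUC12, a membrane mucin of the colon, was dim in both of its probe sets. In 226654_at the levels ran from 5.64 to 5.98 in vehicle and from 5.59 to 6.02 in SAH-BCL9B (log2 change -0.02 ± 0.14, SE), with vehicle 3 and SAH-BCL9B 2 the highest of their groups. The change of 231814_at was 0.08 ± 0.09.

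For the 23 probe sets that did not pass, the intervals bound the change instead of excluding one. The 95% limits of the 22 other than the brightest ones of MUC13 and MUC5AC lay within -0.61 and 0.57.

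**Figure D3:**
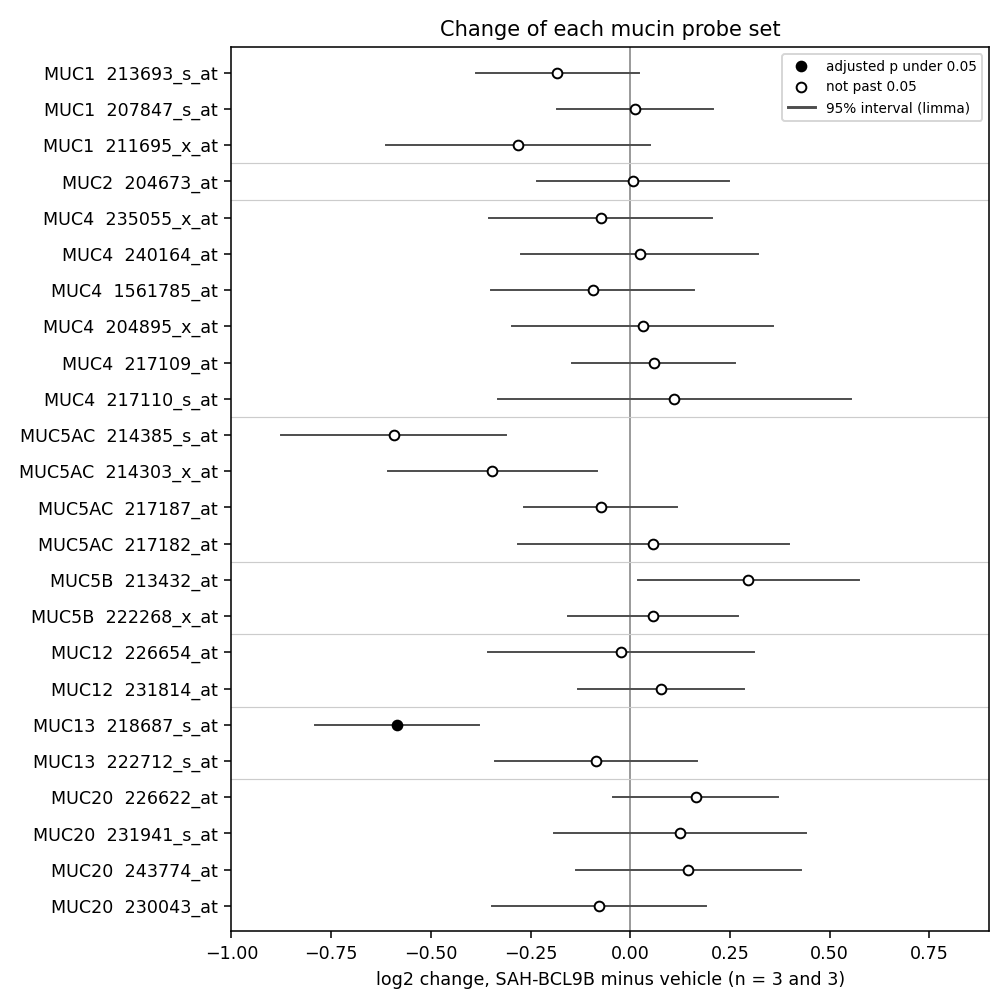
Log2 change, SAH-BCL9B minus vehicle (x axis), of each of the 24 mucin probe sets (y axis), with limma's 95% intervals (3 arrays per group). A filled point marks an adjusted p under 0.05, which only the brighter MUC13 probe set has; the intervals of both brighter MUC5AC probe sets also lie below 0, and that of 1 MUC5B probe set above it.

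The change of MUC13 was set against that of each other mucin within the arrays, by the brightest probe set of each gene. MUC13 was the reference because it had passed, so these differences are a description with no test. Its log2 change was lower than that of MUC5B by 0.88, of MUC20 by 0.75, of MUC2 by 0.59, of MUC12 by 0.56, of MUC4 by 0.51 and of MUC1 by 0.40. In these 6 of 7 pairs the within-array differences of the groups did not overlap, with MUC13 lower in SAH-BCL9B, and the same held for MUC13 against 87.9% of the 19774 other genes, so the count is near the background. Against MUC5AC the groups overlapped and the difference was 0.01, or -0.10 with the probe sets of each gene averaged.

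The genes whose values over the 6 arrays lay closest to those of MUC13, each gene centred on its own mean, were PRR11, PRRT3-AS1, NDC80, MBNL2 and PAN2. Their root mean square distances were 0.038, 0.042, 0.043, 0.047 and 0.051 on the log2 scale, where the median over 19073 genes was 0.34. Their log2 changes, which this choice sets near that of MUC13, ran from -0.60 for NDC80, a kinetochore gene, to -0.50 for PAN2, a deadenylase gene. MUC5AC ranked 151st, at 0.10.

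Other genes of mucin biology were taken from 5 lists chosen with earlier results of these data known, each gene by its brightest probe set. Over all 19775 genes taken this way, 1.92% fell, 1.61% rose, the groups did not overlap in 28.3% (12.0% lower and 16.3% higher), and the median log2 change was 0.02.

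Genes of O-glycosylation, most of them for enzymes that build the sugar chains of mucins, changed in both directions. Of 32 measured, 4 fell, 2 rose and 26 did not pass (all genes: 1.92% fell and 1.61% rose), and the median was 0.07. In limma, 12 had an unadjusted p under 0.05 (all genes: 19.0%). The groups did not overlap in 7 that were lower and 9 that were higher (all genes: 12.0% and 16.3%). The sialyltransferase gene ST6GALNAC1, whose product caps the first sugar of the chain, had levels of 5.96, 5.66 and 5.85 in vehicle and 5.24, 5.15 and 4.92 in SAH-BCL9B (log2 change -0.72 ± 0.12, SE, limma adjusted p = 0.0295), all below the array medians. ST3GAL4, which adds sialic acid at chain ends, fell from 7.78 ± 0.09 to 7.17 ± 0.09 (SD, n = 3; adjusted p = 0.0226). The fucosyltransferase gene FUT1, of blood group H synthesis, fell from 9.76 ± 0.12 to 9.16 ± 0.07 (adjusted p = 0.0246). FUT3, of Lewis antigen synthesis, named to complete the count after its values were seen, fell by 0.47 on the log2 scale (adjusted p = 0.0282).

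The 2 genes that rose in this list, GALNT2 and GALNT1, encode enzymes that attach the first sugar to the protein. The other GALNT genes did not pass, with log2 changes from -0.17 for GALNT14 to 0.34 for GALNT3. C1GALT1, not a GALNT gene, had 0.40 and did not pass either. GALNT2 rose from 10.84 ± 0.10 to 11.36 ± 0.05 (SD, n = 3), a log2 change of 0.52 ± 0.09 (SE, limma adjusted p = 0.0317), with 3 of its 4 probe sets past the threshold. GALNT1, also named to complete the count, rose by 0.48 ± 0.08 in 1 of its 5 probe sets (adjusted p = 0.0334). The changes of its 5 probe sets were all positive, from 0.06 to 0.48. The fall of FUT3 was not shared by its other probe set (0.14), and that of ST3GAL4 hardly (-0.02). Averaged over their probe sets, FUT3, ST3GAL4 and GALNT1 missed the threshold (limma adjusted p = 0.36, 0.068 and 0.18; ranges over the alternatives 0.0098 to 0.36, 0.0079 to 0.12 and 0.0018 to 0.18). All 6 missed it when any 1 array other than SAH-BCL9B 2 was left out. With that array left out 4 fell and 4 rose, and 1478 of all 54613 probe sets passed, against 1363 with every array. Without vehicle 3 and SAH-BCL9B 2, 1 fell, ST3GAL4, and none rose.

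Among genes of goblet cell secretion other than the mucins, most of them for secreted products, none passed, and changes went both ways. Of 19 measured, 9 had a negative and 10 a positive log2 change, and the median was 0.0029. In limma, 4 had an unadjusted p under 0.05 (all genes: 19.0%). The groups did not overlap in 6, all lower (all genes: 28.3% in either direction, 12.0% lower): REG4, TFF1, TFF2, TFF3, SPINK4 and AGR2. REG4, a lectin gene of intestinal secretory cells and the one with the largest value, had levels of 6.52, 6.62 and 7.07 in vehicle and 5.85, 6.46 and 5.62 in SAH-BCL9B (log2 change -0.76 ± 0.23, SE, limma adjusted p = 0.159). SAH-BCL9B 2 lay closest to the vehicle arrays, and without it the change was -1.01 and passed (limma adjusted p = 0.034, range 0.014 to 0.37 over the alternatives).

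TFF1, a trefoil peptide gene secreted with MUC5AC in the stomach, was the nearest to the threshold of that list and was named after its values were seen. Its levels were 10.41, 10.36 and 10.22 in vehicle and 9.98, 9.91 and 9.72 in SAH-BCL9B, and the log2 change was -0.46 ± 0.10 (SE, limma adjusted p = 0.0691). It passed in the fit with 1 probe set per gene (limma adjusted p = 0.030, range 0.018 to 0.27 over the alternatives). TFF3, the trefoil gene of intestinal goblet cells, had a value of -0.25 ± 0.10, and TFF2 of -0.19 ± 0.09. Of the 19 genes in that list, 10 lay below the array medians in vehicle. Among these were CLCA1, FCGBP and ZG16, genes of mature goblet cell mucus, with log2 changes of 0.0029, 0.06 and 0.10. Brighter members in vehicle included AGR2 (14.2), TFF3 (9.71) and SPINK4 (7.83).

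**Figure D4:**
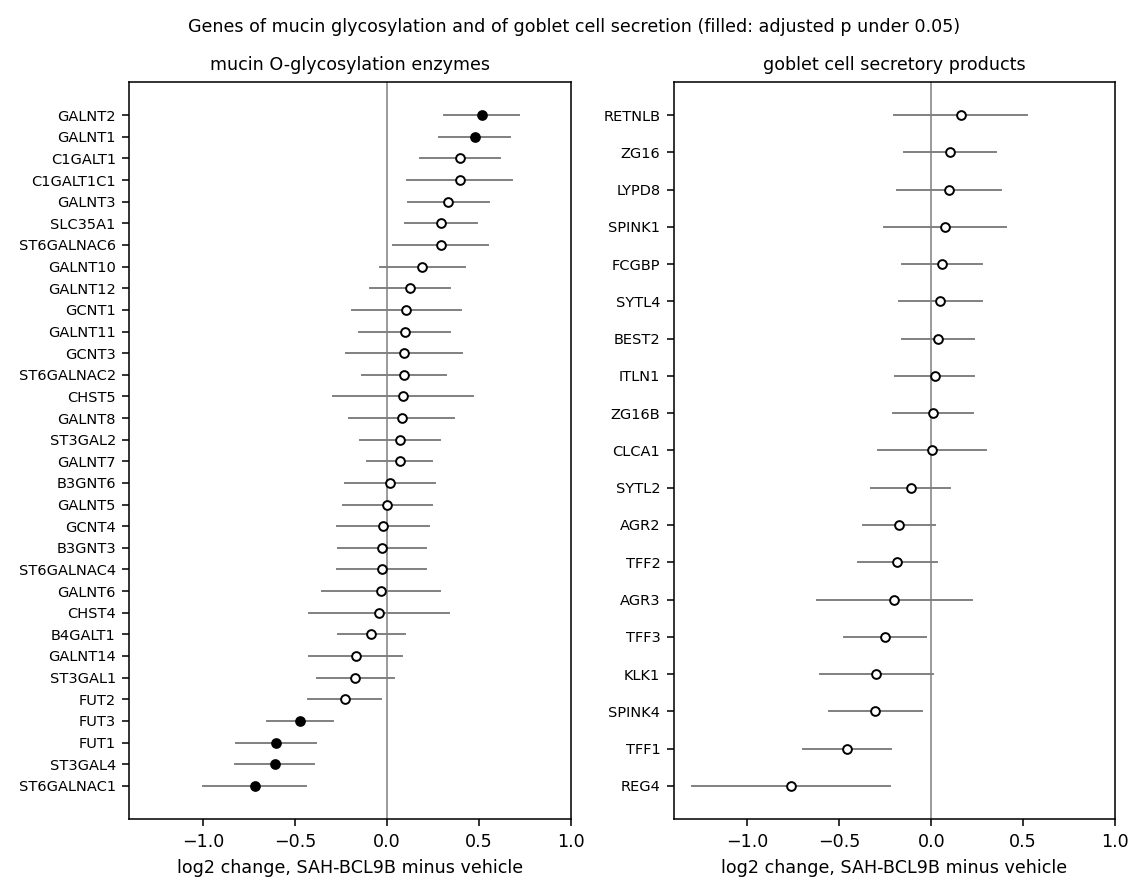
Log2 change, SAH-BCL9B minus vehicle (x axes), with limma's 95% intervals, of 32 genes of mucin O-glycosylation (left) and 19 of goblet cell secretion (right). Each gene is shown by 1 probe set, with 3 arrays per group, and filled points have an adjusted p under 0.05. On the left 4 filled points lie below 0 and 2 above, and on the right none is filled.

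The remaining lists of mucin biology gave no call. Of all genes 19.0% had an unadjusted p under 0.05. Of 18 measured transcription factors of goblet cells and mucin genes none passed (6 with an unadjusted p under 0.05), and the largest value was that of CREB3L4, a factor anchored in the endoplasmic reticulum (log2 change -0.39 ± 0.09, SE, limma adjusted p = 0.0775). Of 19 measured partners and sheddases of membrane mucins none passed (4 unadjusted), with LGALS4, a galectin gene of the colon, at -0.32 ± 0.11 (adjusted p = 0.212). Of 14 other measured mucins and mucin-like genes none passed (3 unadjusted), with the sialomucin gene PODXL at -0.27 ± 0.09 (adjusted p = 0.18). MUC3A and MUC17, the neighbours of MUC12, had values of 0.13 ± 0.12 and 0.22 ± 0.21. Of 11 epithelial and colon epithelial markers 2 fell and 1 rose (all genes: 1.92% and 1.61%). The microvillus gene VIL1 (-0.86 ± 0.10, limma adjusted p = 0.00989) and the cadherin gene CDH17 (-0.55 ± 0.08, adjusted p = 0.0236) fell, and KRT8 rose (0.50 ± 0.08, adjusted p = 0.0305). CDH17 and KRT8 missed the threshold when any 1 array other than SAH-BCL9B 2 was left out, with values reaching 0.12 and 0.13. VIL1 kept its call only without vehicle 3 or SAH-BCL9B 2 among these 6 fits, and its value reached 0.062. The 4 probe sets of VIL1 had log2 changes from -0.86 to -0.02, 2 of them past the threshold, and their average was -0.40 (limma adjusted p = 0.019). The other alternatives used its brightest probe set, and over all of them the limma adjusted p ran from 0.0013 to 0.062.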

How the data were processed

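Per the labels, the authors processed 6 arrays with RMA and affy, and the deposited table holds 54675 probe sets as log2 values; the range of the values, not a label, gave that scale. No source used here gives versions, options or scanner background. RMA makes arrays alike in distribution and shrinks the changes of dim probe sets. Probe sets were named through GEO's platform annotation, checked by Entrez ID against RefSeq (GRCh38.p14), and the 62 array controls were left out. Groups were compared in R 4.3.3 with linear models and moderated variances (limma 3.58.1; no covariate or filter), adjusted by Benjamini-Hochberg over 54613 probe sets. The procedure was tested on simulated data. The brightest probe set of a gene has the highest average across all arrays. The text names every mucin probe set and, per list, up to 4 genes past the threshold by size of change, or else the 1 with the largest change, and the 5 genes most like MUC13. Every other gene named was chosen after its values were seen. Members and lists were chosen with earlier results of these data known. Alternatives covered the replicate block, the use of probe sets, a filter, centring, quantile normalization, the variance model, array weights and each array left out; 3 more were added after seeing the data. The labels do not say that same-numbered arrays share a day or batch, so the numbers were not taken as pairs. Deviations of same-numbered arrays correlated at 0.41, 0.06 and -0.31, and 3 arrays per group are too few to exclude pairing. The fit with the replicate block is given below.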

Additional observations from a re-analysis of the deposited data

How the results depend on the processing

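The number of probe sets past the threshold, 1363, was 171 with the replicate number as a block, 2722 with a filter above the median level, 2923 with a variance trend and robust fit, 2738 with array weights, 2983 with array SD as a covariate and 836 with vehicle 3 and SAH-BCL9B 2 left out; leaving out 1 array gave 97 to 1478. Covariates (array SD and ACTB 3' minus 5') and the removal of those 2 arrays were chosen after seeing the data.

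The count of lowered mucin probe sets, 1, was 0 with the replicate block and 2 with 1 probe set per gene, the filter, a second quantile normalization, the variance trend, array weights or array SD (0 to 1 with an array left out). MUC13 kept its direction and missed the threshold with the replicate block (-0.58, adjusted p = 0.10); with an array left out it ran from -0.62 to -0.54. MUC5AC 214385_s_at passed with 1 probe set per gene (-0.59), the filter (-0.59), a second quantile normalization (-0.59), the variance trend (-0.59), array weights (-0.62) and array SD (-0.61).

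Reversed signs, none of them called, were as follows. With array weights, MUC2 had -0.063, MUC4 240164_at -0.0062 and 204895_x_at -0.042, and MUC5AC 217182_at -0.015. With the ACTB covariate, MUC2 had -0.088, MUC4 240164_at -0.064, 204895_x_at -0.14 and 217110_s_at -0.15, and MUC5AC 217182_at -0.090. Without vehicle 3 and SAH-BCL9B 2, MUC2 had -0.11, MUC4 235055_x_at 0.0048, 240164_at -0.020, 204895_x_at -0.030 and 217110_s_at -0.027, and MUC5AC 217182_at -0.060. With the mean of all probe sets, MUC4 had 0.0093 and MUC12 0.027; with array SD, MUC12 226654_at had 0.003. With 1 array left out, the ranges were -0.028 to 0.051 for MUC1 207847_s_at, -0.089 to 0.056 for MUC2, -0.15 to 0.022 for MUC4 235055_x_at, -0.072 to 0.14 for 240164_at, -0.11 to 0.14 for 204895_x_at and -0.11 to 0.22 for 217110_s_at, -0.095 to 0.19 for MUC5AC 217182_at, -0.0016 to 0.11 for MUC5B 222268_x_at, -0.15 to 0.077 for MUC12 226654_at and -0.16 to 0.0049 for MUC20 230043_at. The difference in change between MUC13 and MUC5AC was -0.10 with the mean of all probe sets and -0.055 to 0.079 with 1 array left out.

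Lowered glycosylation enzymes, 4, were 0 with the replicate block, 2 with the mean of all probe sets, 1 without those 2 arrays and 0 to 4 with 1 left out. Raised ones, 2, were 0 with the block, 1 with the mean of all probe sets, 4 with the filter, 5 with the variance trend, 4 with array weights, 4 with array SD, 0 without those 2 arrays and 0 to 4 with 1 left out. With the filter, variance trend, array weights and array SD, calls over all probe sets tested rose too, from 1363 to 2722, 2923, 2738 and 2983. Limma adjusted p over the alternatives reached 0.36 for FUT3, 0.12 for ST3GAL4 and 0.18 for GALNT1. Lowered goblet cell products, none, were 1 (TFF1) with 1 probe set per gene, the mean of all probe sets, the filter, a second quantile normalization or the variance trend, 2 (TFF1 and REG4) with array weights or array SD, and 1 (REG4) with the ACTB covariate or without those 2 arrays (0 to 1 with 1 left out). CREB3L4 was 1 lowered transcription factor with 1 probe set per gene, the mean of all probe sets, the filter, the variance trend, array weights and array SD. Of membrane mucin partners and sheddases, SRC fell with 1 probe set per gene, the filter and array weights. With the variance trend ERBB3 fell and ADAM17 rose. PODXL was 1 other mucin that fell with the variance trend. The cause of these shifts was not tested; smaller tables adjust over fewer tests, and 5 arrays leave less to estimate the spread. Depth of signal over background is unknown, so the 12 probe sets below the array medians may understate changes.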
